A study of Homo sapiens with 6 samples.

Results

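The comparison set 2 irradiated libraries, collected at day 15, against 2 unirradiated libraries, collected at day 14, of a pooled double-knockout screen. These are 4 of the 6 libraries of the series, chosen by the treatment and time in the sample titles, and the other 2 are day 0 libraries given here only as a reference level. All libraries came from eHAP iCas9-cl#6, a clone of a near-haploid human cell line that is p53 null per the labels and makes the Cas9 nuclease when doxycycline is added. Oxygen is given as 12% for all 6 libraries. The cells took up constructs that each carry a guide RNA at position 1 and another at position 2, at a multiplicity of infection of 0.15. The day 14 and irradiated cells received doxycycline for 7 days, and no doxycycline time is given for the day 0 libraries. The unirradiated cells grew for 14 days and 12 population doublings. The irradiated cells received 0.6 Gy of X-rays 24 hours after each split, with splits every 3 days, and grew for 15 days and 10 doublings. Irradiation, the additional day and the smaller number of doublings cannot be told apart in this design. The labels call the dose an LD20 in one place and an LD30 in another. Each library is an amplicon of the guide locus from genomic DNA, so a value counts the reads of a construct among all constructs and measures no RNA.

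X-rays break both strands of DNA. Human cells rejoin most of these breaks by end joining, in which Ku, DNA-PK and ligase IV hold and seal the ends, and repair others from the sister chromatid by homologous recombination with BRCA1 and BRCA2. ATM and the MRE11 complex signal the breaks, and ATR with CHEK1 restrains cells that carry damaged or unreplicated DNA. In a pooled screen a knockout that slows growth loses reads relative to the rest of the pool, and a knockout that favours growth gains them. The files write gene symbols in mouse style. Of the 459 genes, 445 matched a current human symbol in RefSeq (GRCh38.p14), 9 an older one and 5 none.

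The library held 863546 guide pairs, built from 936 guides at position 1 and 951 at position 2, of which 1826 were targeting and 61 non-targeting. The 4 libraries had between 61185707 and 86587125 reads. They differed in how many guide pairs they held. Day 14 replicate 1 lacked 54.1% of guide pairs and irradiated replicate 2 lacked 49.4%, whereas day 14 replicate 2 lacked 5.62% and irradiated replicate 1 lacked 7.62%. Each group thus had a near complete and an incomplete library. The near complete libraries shared 779611 guide pairs, or 95.7% of those in day 14 replicate 2 and 97.7% of those in irradiated replicate 1. The incomplete libraries shared 313301, or 79.0% of those in day 14 replicate 1 and 71.8% of those in irradiated replicate 2, and 343764 guide pairs (39.8%) were in neither. The guide pairs in neither had a median of 37.5 reads at day 0, against 123 for those in both. Many of the changes below are therefore also given within coverage, first for the near complete libraries and then for the incomplete ones. Each within-coverage value compares 1 library with 1 library and has no replicate error, but the comparisons share no library. The labels do not say whether the replicates were separate cultures, so p-values measure only the spread between these samples, which may be technical.

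A guide's level was the sum of its reads over all its partners, as CPM (reads scaled to a common depth within its position), and 1849 guides had enough reads to be tested. Guide 1 of Cebpg had the largest change of all guides, at 3.39-fold. Among the guides of smallest p came single guides of Rnf111, Sfpq, Huwe1, Psme4, Atr, Pds5b and Ppp4r2, at 1.27 to 1.55 times their day 14 level. On the lower side the largest changes were those of guide 1 of Mutyh, guide 4 of Rfwd3 and guide 1 of Cul4b. edgeR's quasi-likelihood test on all 6 libraries called 0 of the 1849 guides (0%) after Benjamini-Hochberg adjustment. In it 83 guides had an unadjusted p below 0.05, and the smallest adjusted p was 0.05005. In the fit of the 4 libraries alone edgeR called 10 guides (0.541%), 7 higher and 3 lower, and DESeq2 on all 6 libraries called 22. The 6-library fit takes part of its spread from day 0, where the replicates differed at position 2 with a standard deviation of 0.38 (log2) over guides, against 0.07 at position 1. Leaving out day 0 replicate 1 gave 10 calls and leaving out day 0 replicate 2 gave 11, whereas leaving out any of the 4 libraries compared gave 0. With incomplete against near complete libraries as a term the fit called 0, with a smallest adjusted p of 0.329 and 125 guides at an unadjusted p below 0.05.

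**Figure D1:**
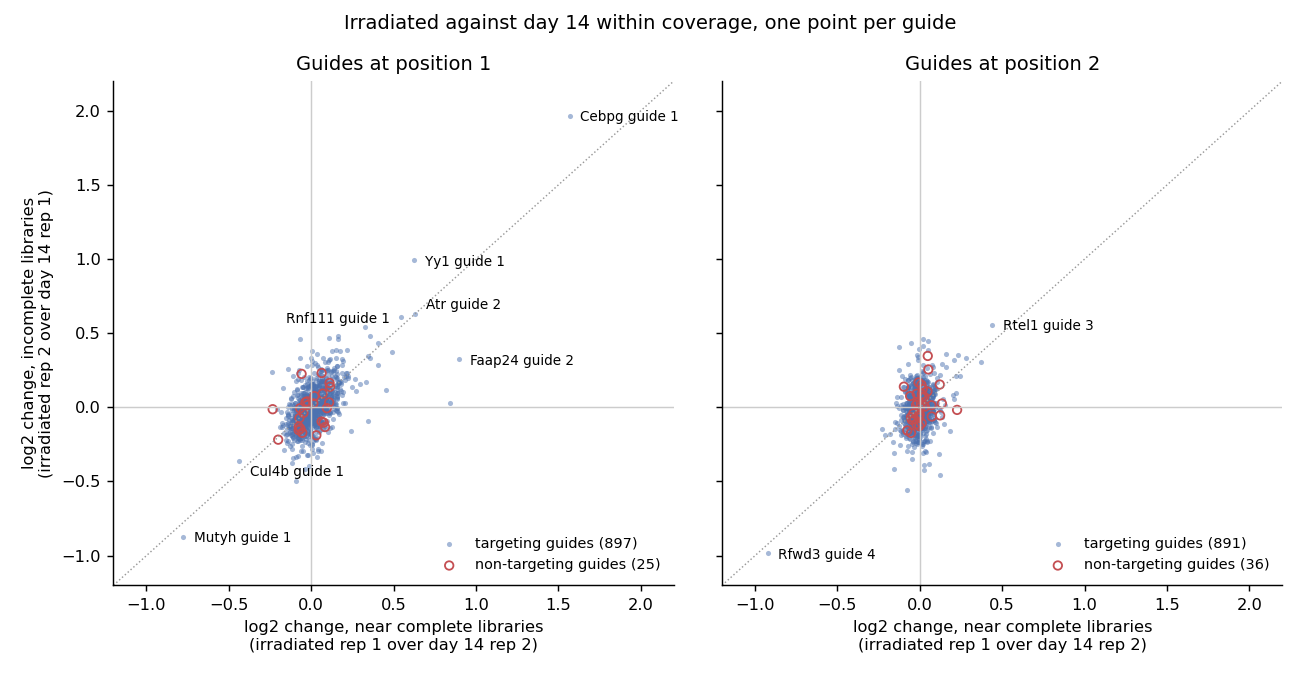
Log2 change of each guide between irradiated and day 14 cells in the near complete libraries (x axis) and in the incomplete libraries (y axis), for position 1 on the left and position 2 on the right. Targeting guides are blue dots, non-targeting guides red circles, and the dotted line marks equal changes. Guide 1 of Cebpg lies at 1.57 and 1.97, and most guides of both kinds crowd around 0.

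Cebpg encodes a bZIP transcription factor that pairs with other family members in the stress response, at chr19:33373709-33382686 in GRCh38.p14. Its guide 1 was at 178 and 218 CPM at day 14 and at 647 and 698 after irradiation. At day 0 it was at 194 and 222. Both irradiated libraries thus stood far above all 4 others, which lay close together. The change was 1.76 on the log2 scale (SE 0.14, 95% interval 1.419 to 2.103, n = 2 libraries per group), or 3.39-fold. Within coverage it was 1.57 and 1.97. The edgeR adjusted p was 0.05005 in the fit of 6 libraries, just outside the threshold, and 3.73e-06 in the fit of the 4. Over 15 alternatives the change ran from 1.57 to 1.91 and passed the threshold in 8, with adjusted p from 2.59e-28 to 1.00.

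The higher level of this guide was spread over its partners. Of 931 constructs that hold it, 724 had at least 20 reads in the near complete libraries together, and 692 of these (95.6%) were higher after irradiation, with a median of 1.51 and a middle range (quartiles) of 0.88 to 2.14. In the incomplete libraries 354 of 412 (85.9%) were higher. The share over all constructs was not counted for either comparison. Its most abundant construct made up at most 3.34% of its reads in any of the 4 libraries, and without it the change was 1.77. With non-targeting partners, in 36 constructs, it had 110 and 410 reads at day 14 and 1383 and 838 after irradiation, so the constructs without a second knockout also had more reads in both irradiated libraries. Over all 1849 guides the partner median in the near complete libraries ran from -0.20 to 0.13 in the central 95%, around a middle value of -0.05. The next highest after Cebpg guide 1 was guide 2 of Faap24 at 0.85. The other guides of Cebpg did not share this. Guide 2, at the same position, was at 0.29 (0.11 and 0.47 within coverage). Its construct with guide 3 of Ercc6 had 0 and 12 reads at day 14 and 32 and 20244 after irradiation, and without its most abundant construct the guide was at 0.07. On the other position, guides 3 and 4 were at 0.03 and 0.01.

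**Figure D2:**
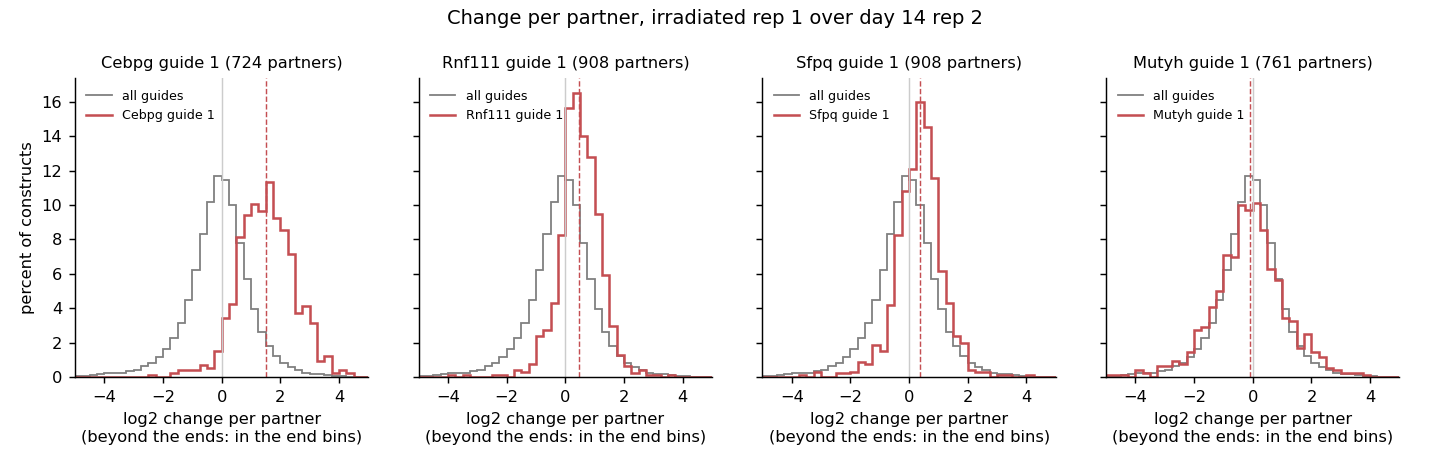
Distribution of the log2 change per partner in the near complete libraries (irradiated replicate 1 over day 14 replicate 2) for 4 guides in red, with the distribution over all constructs in grey and the guide's median as a dashed line. Guide 1 of Cebpg is shifted as a whole (median 1.51), guide 1 of Rnf111 and guide 1 of Sfpq by less (0.46 and 0.39), and guide 1 of Mutyh overlies the grey curve.

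Next came 2 ubiquitin ligases and an RNA-binding protein. Rnf111, at chr15:58987663-59097419, encodes a ubiquitin ligase that recognises SUMO chains. Its guide 1 was at 1593 and 1711 CPM at day 14, at 2495 and 2425 after irradiation, and at 2498 and 2423 at day 0. The day 14 libraries were thus the low ones, and the irradiated libraries stood at the day 0 level. The change against day 14 was 0.57 (95% interval 0.44 to 0.71, 0.54 and 0.61 within coverage), with an edgeR adjusted p of 0.0648 in the fit of 6 libraries. It passed in 6 of 15 alternatives, the fit of the 4 libraries among them. Of 908 partners in the near complete libraries 80.3% were higher, with a median of 0.46. Partner shares below are also from the near complete libraries unless stated. Guide 2 of Rnf111 was at 0.13 and guides 3 and 4 at -0.04 and -0.03.

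Guide 1 of Sfpq, a splicing and RNA-binding factor of the nucleus, had the same order of levels. It was at 1565 and 1631 CPM at day 14, 2159 and 2111 after irradiation and 2038 and 2169 at day 0. The change was 0.42 (95% interval 0.28 to 0.55, 0.40 and 0.43 within coverage), and 70.5% of its 908 partners were higher. Guide 1 of Huwe1, a large HECT-type ubiquitin ligase, was at 1646 and 1656 at day 14, 2104 and 2088 after irradiation and 1954 and 2109 at day 0, a change of 0.34 (0.35 and 0.34 within coverage), and 68.2% of its 907 partners were higher. For both genes the groups did not overlap, and both guides passed in the fit of the 4 libraries and in 5 of 15 alternatives. The remaining guides of Sfpq lay between -0.15 and 0.07 and those of Huwe1 at -0.02 and -0.04.

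Among the guides of smallest p were also single guides of Atr, Topbp1 and Rtel1. Atr encodes the kinase that senses single-stranded DNA at stalled forks. Its guide 2 was at 190 and 209 CPM at day 14 and at 323 and 293 after irradiation, beside 327 and 301 at day 0. The irradiated libraries again stood at the day 0 level and above both day 14 libraries. The change was 0.63 (95% interval 0.36 to 0.90, 0.63 in both within-coverage comparisons), with an edgeR adjusted p of 0.283, and it did not pass in the fit of the 4 libraries. Of 494 partners 68.8% were higher, with a median of 0.58. The other Atr guides were at 0.12 (guide 1), -0.01 (guide 3) and 0.26 (guide 4). Guide 2 of Topbp1, the activator of ATR, was at 2101 and 2126 at day 14, 2468 and 2466 after irradiation and 2484 and 2445 at day 0. Its change was 0.22, and the other 3 Topbp1 guides lay between -0.03 and 0.03. Guide 3 of Rtel1, a helicase that takes apart telomere loops and recombination intermediates, was at 330 and 325 at day 14, 439 and 484 after irradiation and 341 and 353 at day 0, a change of 0.50 (0.44 and 0.55 within coverage) that did not pass in the fit of the 4 libraries. It differs from the guides of Atr and Topbp1 in that the irradiated libraries were also above both day 0 libraries.

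Guides of Pds5b, Ppp4r2 and Psme4 followed. Guide 1 of Pds5b, a cohesin regulator, changed by 0.43 (0.49 and 0.37 within coverage). It was at 817 and 738 CPM at day 14, 1037 and 1058 after irradiation and 1054 and 979 at day 0. Of its 828 partners 67.9% were higher. Guide 4 of the same gene, which sits at position 2, was at 0.31 (0.28 and 0.33), guide 2 at 0.16 and guide 3 at 0.00. Guide 2 of Ppp4r2, a subunit of the phosphatase that acts on phosphorylated H2AX, changed by 0.43 (0.33 and 0.54). It was at 593 and 657 at day 14, 825 and 865 after irradiation and 827 and 784 at day 0. Its guide 1, at the same position, was at 0.18 (0.18 and 0.17), guide 3 at -0.20 (-0.16 and -0.24) and guide 4 at 0.01, so its guides went both ways. Guide 2 of Psme4, a proteasome activator, changed by 0.35. It was at 691 and 697 at day 14, 893 and 873 after irradiation and 883 and 872 at day 0. Its guide 1, at the same position, was at -0.13 (-0.07 and -0.19) and below both day 14 libraries, and guides 3 and 4 were at 0.004 and -0.05. The guides of Pds5b and Ppp4r2 passed in the fit of the 4 libraries and that of Psme4 did not. With each position fitted on its own the guides of Psme4 and Atr passed too, and those of Rfwd3 and Yy1 did not.

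Single guides of 7 further genes had the next smallest p. Guide 2 of Fancg, of the Fanconi anemia core complex, changed by 0.42 (0.36 and 0.48 within coverage). It was at 234 and 233 CPM at day 14, 298 and 326 after irradiation and 285 and 311 at day 0. Guide 2 of Usp1, the deubiquitinase of FANCD2 and PCNA, was at 0.22, and guide 1, at the same position, was at 0.17. Guide 2 of Rad50, a subunit of the MRE11 complex, was at 0.28 (0.17 and 0.38), and the other 3 Rad50 guides lay between -0.02 and 0.03. Guide 1 of Ube2b, a ubiquitin-conjugating enzyme of damage tolerance, was at 0.34 and guide 1 of Alkbh3, a DNA demethylase, at 0.30. Lower values were found for guide 1 of Nsmce4a, a subunit of the SMC5/6 complex, at -0.17 in both within-coverage comparisons, and for guide 2 of Ankle1, a nuclease, at -0.16 and -0.22. Of the partners of these guides 34.3% (of 920) and 36.01% (of 908) were higher in the near complete libraries. In the incomplete libraries 51.7% (of 779) and 52.0% (of 650) were higher. There 123231 guide pairs had reads in irradiated replicate 2 only, against 83250 in day 14 replicate 1 only. Shares in the incomplete libraries are therefore not centred on an even split. Without the most abundant construct the guides were at -0.17 and -0.19, so the lower level was not carried by that construct. None of these 7 guides passed in the fit of the 4 libraries.

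**Figure D3:**
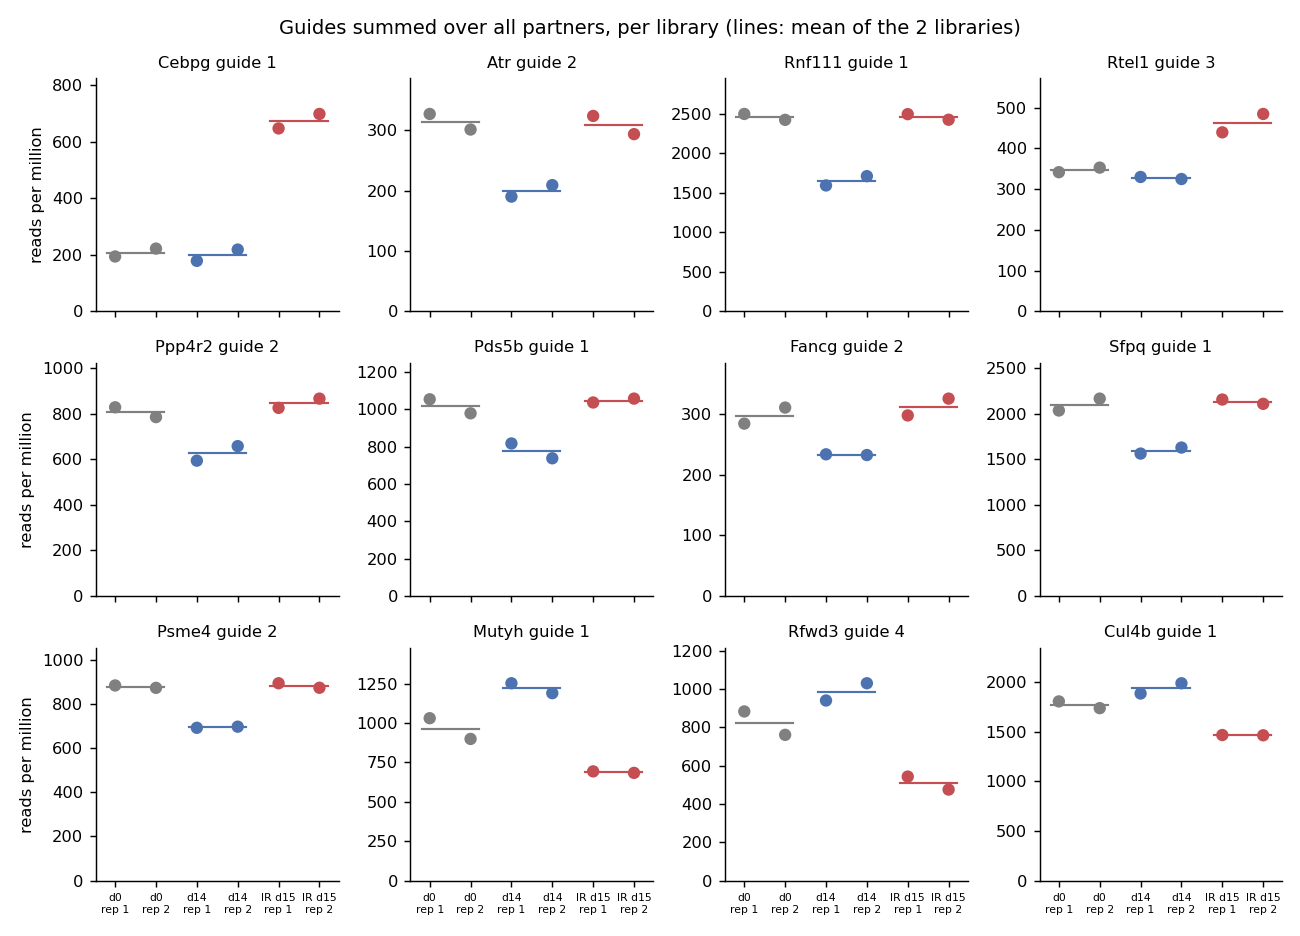
CPM of 12 guides in each of the 6 libraries, with day 0 in grey, day 14 (d14) in blue and irradiated day 15 (IR d15) in red, and a line at the mean of the 2 libraries of a group. Each vertical axis starts at 0. Among the higher guides, guide 1 of Cebpg and guide 3 of Rtel1 show irradiated libraries above the day 0 libraries. Every higher guide drawn except guide 1 of Cebpg shows both day 14 libraries below both other groups. The guides were chosen by p against day 14, which favours low day 14 values among the higher ones.

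Of the 20 guides of smallest p, 15 were higher and 5 lower, and 18 sat at position 1. In 14 of the 15 higher guides, all but guide 1 of Cebpg, both day 14 libraries lay below both day 0 libraries. The share of all guides with that order was not counted, and choosing guides higher than day 14 favours low day 14 values. The order is therefore partly built in by the choice. In all 20 the irradiated libraries did not overlap the day 14 libraries, which their choice by p in this comparison builds in. Over all guides 15.1% lay above and 15.8% below in this way. The tested spread differed by position. Fitted on its own, position 1 had a biological coefficient of variation of 0.0559 and position 2 of 0.127, and such fits, chosen after seeing the data, called 10 guides (0.541%), of which 8 were also called in the fit of the 4 libraries. The change from day 14 and the change from day 0 use different references but the same irradiated libraries, so the day 0 levels above are set side by side only. Guide 1 of Yy1, a zinc-finger transcription factor that also joins the INO80 complex, was the only guide called in the fit of the 4 libraries outside these 20, and is named after its values were seen. It was at 822 and 1012 CPM at day 14, 1559 and 1633 after irradiation and 564 and 901 at day 0, a change of 0.80, and the other 3 Yy1 guides lay between -0.06 and 0.09.

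Of the 3 lowest guides, those of Mutyh and Rfwd3 rested on a single construct and that of Cul4b did so in part. Guide 1 of Mutyh, a glycosylase that removes adenine opposite oxidised guanine, was at 1252 and 1189 CPM at day 14 and 693 and 683 after irradiation, a change of -0.83 (95% interval -1.03 to -0.62). Guide 4 of Rfwd3, a ubiquitin ligase that acts on RPA in crosslink repair, was at 940 and 1030 at day 14 and 543 and 475 after irradiation, a change of -0.95 (95% interval -1.23 to -0.67). Both are carried by the same construct, which made up 40.3% and 41.6% of the reads of the Mutyh guide at day 14. That construct had 32029 and 21311 reads at day 0, 31108 and 30281 at day 14, and 10 and 2 after irradiation. Without it the guides were at -0.07 and 0.08. Of the partners 46.0% (of 761) were higher for the Mutyh guide and 50.6% (of 737) for the Rfwd3 guide. Guide 1 of Cul4b, a scaffold of cullin ubiquitin ligases, was at 1885 and 1989 at day 14 and 1467 and 1464 after irradiation, a change of -0.40 (95% interval -0.53 to -0.28). Its construct with guide 3 of Xab2, a factor of splicing and transcription-coupled repair, had 18019 and 24241 reads at day 14 and 299 and 87 after irradiation, beside 28163 and 19781 at day 0. Without that construct the Cul4b guide was at -0.12. Of its partners 40.5% (of 886) were higher in the near complete libraries and 54.4% (of 559) in the incomplete ones. In the incomplete libraries 58.5% (of 347) were higher for the Mutyh guide and 62.0% (of 292) for the Rfwd3 guide.

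Constructs this abundant were rare. Of 141 guide pairs with at least 1000 reads in both day 14 libraries, these 2 were the only ones at least 10-fold lower in both irradiated libraries. Of 351 guide pairs with at least 1000 reads in both irradiated libraries, 0 were at least 10-fold higher than in both day 14 libraries. The other 7 constructs of Mutyh with Rfwd3 summed to 266 and 346 reads at day 14 and 308 and 169 after irradiation. The other 7 of Cul4b with Xab2 summed to 321 and 552 at day 14 and 372 and 242 after irradiation. The loss in reads of each gene pair thus lay almost wholly in 1 construct, and the others were too few in reads, at 552 or fewer in all, to set beside it. Another 2 abundant constructs, named after their reads were seen, differed far more by coverage than by treatment. The pair of Smc2 guide 2 with Pif1 guide 3 had 11571 and 42278 reads in the incomplete day 14 and irradiated libraries, and 155 and 117 in the near complete ones. Within coverage its change was -0.62 in the near complete and 1.39 in the incomplete comparison. The pair of Sirt1 guide 1 with Bivm guide 3 had 15347 and 16572 against 176 and 171.

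The changes within coverage were partly alike for guides and hardly for guide pairs. Over the 897 targeting guides at position 1 the near complete and incomplete changes correlated with r = 0.64 (0.54 without the guides of Cebpg, Mutyh and Cul4b), and over the 891 at position 2 with r = 0.33. The non-targeting guides, which have no target, gave r = 0.38 (25 guides) and 0.22 (36 guides). These are descriptions across guides, which share libraries and partners. For single guide pairs r was 0.02 over 863546, and 0.04 over the 61306 with at least 1000 reads in the 4 libraries together. The standard deviation over targeting guides at position 1 was 0.12 in the near complete and 0.16 in the incomplete comparison, against 0.09 and 0.13 for non-targeting guides.

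Some guides lay outside the whole range of the non-targeting guides of their position in both within-coverage comparisons. At position 1 these were 31 of 897 targeting guides above and 2 below, and at position 2 they were 2 above and 9 below of 891. The 25 non-targeting guides at position 1 ran from -0.23 to 0.11 (near complete) and from -0.22 to 0.23 (incomplete). The 36 at position 2 ran from -0.10 to 0.23 and from -0.17 to 0.35. Higher guides thus pass more easily at position 1 and lower ones at position 2. With so few non-targeting guides the ranges themselves are uncertain. In all 33 lay above (1.85% of 1788) and 11 below (0.615%). Those above were single guides of genes of many kinds. Guide 2 of Brca2 was at 0.18, while the other Brca2 guides were at -0.06, 0.05 and -0.15. Guide 2 of Brca1 was at 0.19, with guides 3 and 4 at 0.05 and 0.003. Guide 1 of Sfr1 was at 0.26. From crosslink repair came guide 2 of Fancg, guide 1 of Fancl, the ubiquitin ligase of the core complex (0.20), and guide 2 of Faap24, an FANCM partner, at 0.62 (0.90 and 0.32 within coverage). Others were guide 1 of Wrn, a helicase, at 0.33 (0.16 and 0.48), guide 2 of Eme1, a partner of the nuclease MUS81, at 0.27 and guide 3 of Rtel1. Below the range, apart from the 3 guides with a lost construct, were among others guide 3 of Paxip1, a 53BP1 partner, at -0.20, and guide 3 of Fen1, the flap endonuclease, at -0.18 in both comparisons. Guide 3 of Polm, an end-joining polymerase, was at -0.19 and, without its most abundant construct, at -0.0085. None of these except the guides called above passed the test in either edgeR fit.

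The genes known for the response to X-rays were then read from all constructs that hold any of their guides. Of 21 such genes 20 were in the library and Prkdc was not measured here. Their changes lay between -0.08 and 0.12, with a median of 0.02 beside 0.003 over all 459 genes. After irradiation 4 lay above and 3 below both day 14 libraries and 13 overlapped them, beside 16.6% and 17.6% of all genes that lay above and below. edgeR called 0 of 459 genes (0%), with 12 at an unadjusted p below 0.05, while DESeq2 called 1 and limma on the mean over guides called 0 with 9. Scaled by the constructs whose guides are both non-targeting, the median over all genes was -0.08, and since that scaling moves all genes alike, small positive values became negative.

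Among the end-joining genes Lig4, the ligase that seals broken ends, was at 1725 and 1793 CPM at day 14 and 1832 and 1819 after irradiation, a change of 0.05 (95% interval -0.10 to 0.20). Its partner Xrcc4 was at 0.03, the Ku subunits Xrcc5 and Xrcc6 at 0.02 each, the ligation cofactors Nhej1 and Paxx at -0.04 and -0.03, and the nuclease Dclre1c (Artemis) at -0.004. Each of these intervals included 0. Xrcc5 was at 2188 and 2332 at day 14 and 2315 and 2261 after irradiation, so that the groups overlapped, and Xrcc6 was at 2662 and 2537 against 2547 and 2730. Lig4 lay above both day 14 libraries by a small margin, and Nhej1 (2700 and 2630 against 2592 and 2590) below them.

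The break-signalling genes gave the same picture. Atm was at 2478 and 2521 CPM at day 14 and 2498 and 2477 after irradiation, a change of -0.01 (95% interval -0.11 to 0.09). Its activators Mre11a, Rad50 and Nbn were at 0.01, 0.06 and 0.04. Trp53bp1, which protects broken ends from resection, was at 0.04, the recombination genes Brca1 and Brca2 at 0.06 and -0.02, the alternative end-joining polymerase Polq at -0.02, and the single-strand break factors Parp1 and Xrcc1 at -0.08 and 0.02. Atr had the largest change of the 20, at 1658 and 1720 against 1857 and 1820, or 0.12 (95% interval 0.01 to 0.24), with Chek1 at -0.03. Trp53, which these cells already lack, was at 0.02. The 78 guides of these genes lay between -0.16 and 0.63, the highest being the Atr guide described above, with 14 above and 9 below both day 14 libraries, near the 15.1% and 15.8% over all guides.

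**Figure D4:**
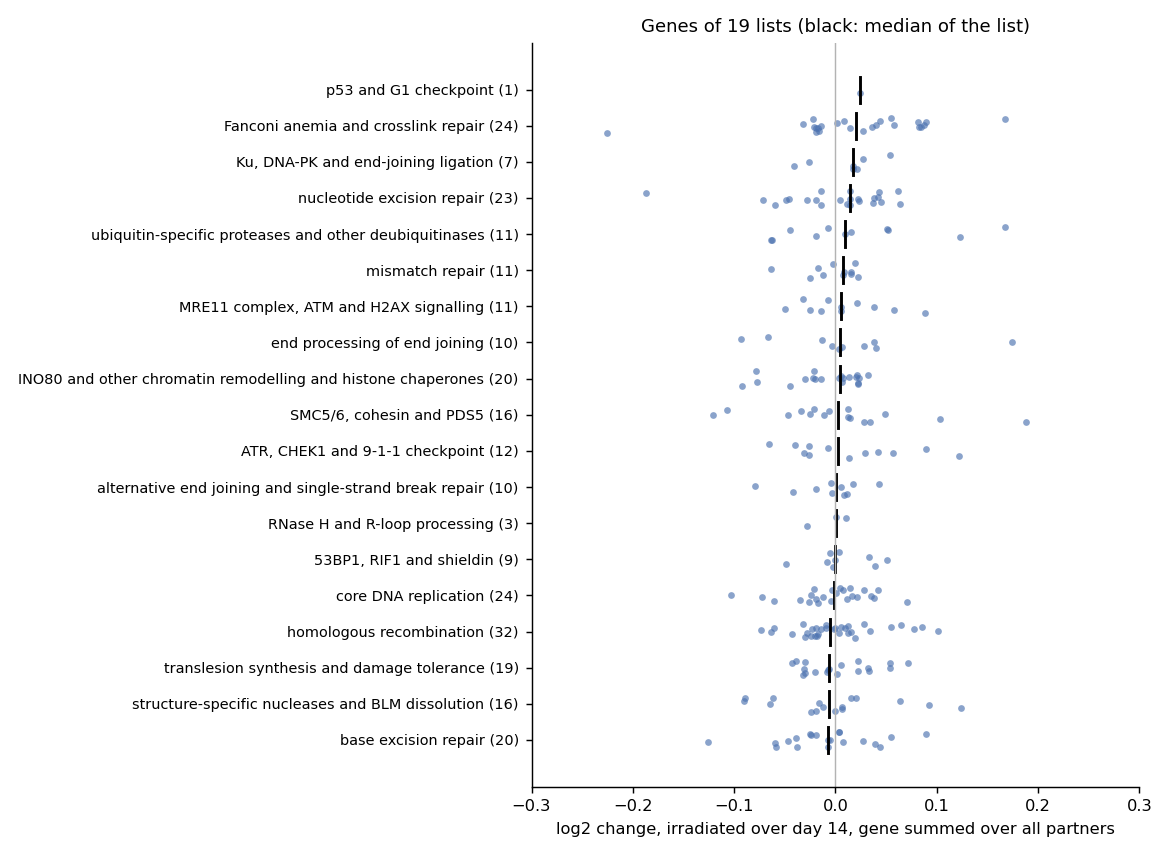
Log2 change of each gene, irradiated over day 14, summed over all partners, for 19 lists of repair and replication genes, with a dot per gene, the list's median in black and the number of genes measured in brackets. All medians lie between -0.01 and 0.02, and the widest dots are Rfwd3, Cul4b, Pds5b, Wrn and Usp1.

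The same held for whole pathways. The 19 lists hold 271 of the genes, and 0 of them passed in any list. Their medians ran from -0.01 to 0.02. Over all genes 16.6% lay above and 17.6% below both day 14 libraries. In the list of Ku, DNA-PK and ligation, 1 of 7 genes lay above and 2 below both day 14 libraries, in homologous recombination 3 and 3 of 32, and in the MRE11, ATM and H2AX list 2 and 0 of 11. The Fanconi anemia list had 6 of 24 above and 2 below, with a median of 0.02, from Rfwd3 at the lower end to Usp1 (0.17), the FANCD2 partner Fanci (0.09) and the FANCM partner Cenps (0.09). In the list of ATR, CHEK1 and the 9-1-1 clamp 3 of 12 were above and 3 below, with Atr and Topbp1 (0.09) highest and the fork factor Timeless (-0.07) lowest. In SMC5/6, cohesin and PDS5 there were 7 of 16 above and 3 below, from Pds5b and Nsmce2, the SUMO ligase of the complex (0.10), down to Nsmce1 and Nsmce4a (-0.11 and -0.12). In base excision repair 3 of 20 were above and 5 below, and in core DNA replication 3 and 6 of 24, with the clamp loader Rfc1 at -0.10 and Pola1 at -0.07.

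Several of the genes with the largest changes hold a guide already described. Rnf111 was at 2139 and 2213 CPM at day 14, 2695 and 2582 after irradiation, and 2668 and 2623 at day 0, a change of 0.28 (95% interval 0.17 to 0.38) with an edgeR adjusted p of 0.337. It was the 1 gene (0.218%) called in the fit of the 4 libraries, and it passed in 4 of 15 alternatives. Yy1 followed at 0.21 (95% interval -0.11 to 0.52) and Sfpq at 0.20 (0.06 to 0.34). Pds5b was at 0.19 (-0.03 to 0.41) and Cebpg at 0.18 (0.06 to 0.30). Mms22l, a factor of fork repair, was at 0.15 (-0.02 to 0.33), from 1140 and 1251 to 1367 and 1290. Rmi1, a subunit of the BLM dissolution complex, was at 0.12 (0.01 to 0.24), with its 4 guides between 0.06 and 0.29. At the other end Rfwd3 and Cul4b stood at -0.23 and -0.19, and Mutyh at -0.13. Without their most abundant guide pair Rfwd3 and Mutyh were each at 0.02, and Cul4b was at -0.06. Bccip, a BRCA2-binding protein, was at 1341 and 1275 at day 14 and 1201 and 1152 after irradiation, a change of -0.15 (-0.09 and -0.22 within coverage), with its 3 guides at -0.20, -0.09 and -0.08. Nudt16l1, a regulator of 53BP1, was at -0.11 and Fto, an RNA demethylase, at -0.10. Over all 459 genes the within-coverage changes had r = 0.62, as a description across genes that share constructs.

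Single knockouts, read from constructs with a non-targeting partner, were measured on fewer reads, with a median of 121 constructs per gene. edgeR called 0 of 459 (0%), with 13 at an unadjusted p below 0.05, and DESeq2 called 0 with 10. Of the 459 genes 8.06% lay above and 17% below both day 14 libraries. The within-coverage changes of these sums had r = 0.14, and their median over all genes was -0.01 in the near complete and -0.12 in the incomplete comparison. Ube2t, which attaches ubiquitin to FANCD2, had much the same change in both, with 120 and 176 scaled reads (per 1000 reads of the control constructs) at day 14, 264 and 177 after irradiation, and changes of 0.58 and 0.56. The lower irradiated library thus lay only just above the higher day 14 library. Most other genes of smallest p differed between coverages. Ino80, the ATPase of a nucleosome remodeller, was at -0.18 and -0.84, its partner subunit Actr5 at -0.16 and -0.72, the ubiquitin ligase Shprh at -0.10 and -0.82, and the excision nuclease Ercc5 at -0.05 and -0.75. The median of the chromatin remodelling and histone chaperone list was -0.01 in the near complete and -0.33 in the incomplete comparison, and that of core DNA replication -0.01 and -0.285. These were the lowest list medians in the incomplete comparison. Of the 20 chromatin and 24 replication genes measured, 5 in each list lay below both day 14 libraries and 0 above. Over all genes these shares were 17% and 8.06%, and the difference from them was not tested. Mismatch repair had 4 of 11 below and 0 above, with medians of -0.08 and -0.13. Nucleotide excision repair had 4 of 23 below and 2 above, with medians of -0.02 and 0.10. For the chromatin and replication lists the lower values lay in the incomplete libraries. There 69.7% and 66.6% of the control constructs, whose guides are both non-targeting, had no reads. The part of this in the medians was not tested.

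Changes of double knockouts beyond both single changes were fitted for 105111 gene pairs. edgeR called 0 (0%), with 874 at an unadjusted p below 0.05, limma called 1, and in the fit of the 4 libraries edgeR called 1 (0.000952%), Mutyh with Rfwd3. That pair was at -7.44 (95% interval -8.63 to -6.25) and Cul4b with Xab2 at -5.72 (-6.93 to -4.51), each resting on the construct given above. The third by p, Ap5s1 with Rad1, a subunit of the 9-1-1 clamp, had 1373 and 1210 reads at day 14 and 614 and 578 after irradiation, with 980 and 1300 at day 0, a value of -1.42 (-2.27 to -0.57). The median 95% half-width was 1.34, and the within-coverage values over 101990 pairs had r = 0.004. Among the 21 pairs within the list of Ku and ligation genes the median was 0.30, with 6 above and 1 below both day 14 libraries, beside a median of 0.005 and shares of 10.3% above and 10% below over all pairs. Pairs of that list with homologous recombination genes (224 pairs) had a median of 0.05, with 26 above and 25 below, and with alternative end-joining genes (70 pairs) a median of -0.01.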

How the data were processed

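Guide amplicons from genomic DNA of the 6 libraries were sequenced by the submitters. The deposited values are raw read counts per guide pair, per the file headers, with missing guide pairs set to 0. HISAT2 2.1.0 and hg38 are named in the submitters' processing notes without their step. The assignment of reads to guides is not stated in the labels. Each library's counts were the same in its own table and in the combined tables, and 2 columns of no sample were not used.

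Counts were summed per guide and position, per gene over all partners, per gene with non-targeting partners, and per gene pair. edgeR 4.0.16 (R 4.3.3) fitted all 6 libraries by its quasi-likelihood test, two-sided, with TMM scaling and Benjamini-Hochberg adjustment at 0.05. Sums with non-targeting partners were scaled by control constructs (both guides non-targeting), given per 1000 of their reads. Minimum mean counts were 2000 for guides and genes over all partners and 20 otherwise. Gene pairs had an offset from an additive fit of medians (25 iterations, prior count 2). DESeq2 1.42.0 and limma 3.58.1 were alternatives. Per-partner ratios used 2 added reads and at least 20 reads. Named were the 20 guides of smallest p, the 10 genes most changed each way with the same sign within both coverages, 21 radiation response genes, up to 3 genes per list and 3 gene pairs; other guides, the genes with non-targeting partners and Fanci were named after their values were seen. The members and lists were chosen with earlier results of these data known. PCR reads without molecular identifiers are not independent molecules. The fits were run on simulated data with the same mean profile in every library, apart from set changes, and a single spread per test. Such data lack the incomplete coverage and the difference in spread between positions, so they do not bear on either.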

Additional observations from a re-analysis of the deposited data

How the results depend on the processing

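The counts of calls depended on the fit more than the changes did. For guides, against 0 calls in the 6-library fit, the fit of the 4 libraries gave 10, each position on its own 10, DESeq2 22, the replicate block 1, no filter on low counts 1 and scaling by non-targeting guides 2. Leaving out a library gave 0 to 11. For genes over all partners, against 0 calls, the fit of the 4 libraries and DESeq2 gave 1 each, and leaving out a library 0 to 1. For gene pairs, against 0 calls, the fit of the 4 libraries, limma-trend and the replicate block gave 1 each, leaving out a library 0 to 1, and the near complete libraries alone 215, in a fit whose spread comes from day 0. Same-numbered replicates deviated in opposite directions (r = -0.58 over 1849 guides). The incomplete libraries bear different numbers in the groups, so this value cannot show whether the numbers mark shared cultures. The crossed pairing is the coverage block, which called 0 guides, genes and gene pairs.

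Signs reversed for values near 0 and for those that rest on a single construct. Without the most abundant guide pair of each feature Rfwd3 guide 4 was at 0.085, Rfwd3 at 0.023 and Mutyh at 0.024. Scaling by the control constructs moved the median of all genes to -0.076 and gave Brca1 -0.011, Lig4 -0.023, Mre11a -0.074, Nbn -0.041, Rad50 -0.020, Trp53 -0.052, Trp53bp1 -0.037, Xrcc1 -0.058, Xrcc4 -0.053, Xrcc5 -0.058 and Xrcc6 -0.058. The mean over guides gave Atm 0.037, Brca2 0.0065, Dclre1c 0.039 and Xrcc4 -0.014. The near complete libraries gave Polq 0.029, Trp53 -0.017, Xrcc1 -0.062 and Xrcc5 -0.011. Leaving out a library gave Atm -0.021 to 0.0019, Chek1 -0.060 to 0.0068, Dclre1c -0.022 to 0.010, Mre11a -0.032 to 0.039, Polq -0.065 to 0.025, Trp53bp1 -0.0094 to 0.085, Xrcc1 -0.029 to 0.061, Xrcc4 -0.0053 to 0.056, Xrcc5 -0.029 to 0.061 and Xrcc6 -0.030 to 0.070. Apart from the single constructs and the scaling by control constructs, which moves all genes alike, the cause of these reversals was not tested. With 2 libraries per group the median half-width of the 95% intervals of genes was 0.14.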
